A study of Mus musculus with 8 samples.

Results

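The Xlr family genes are X-linked genes present in several similar copies. Here they are *Xlr* itself and *Xlr3a*, *Xlr3b*, *Xlr3c*, *Xlr4a*, *Xlr4b*, *Xlr4c*, *Xlr5a*, *Xlr5b* and *Xlr5c*. Through the RefSeq accession of each probe, 11 of 39429 non-control probes were named for 8 of these 10 genes, out of 19751 genes named on the array. No probe was named for *Xlr3c* or *Xlr4c*. The family was selected with the difference between *L3mbtl2*-KD and control ESCs in view, so its values in that comparison are a description. Members past the call rule are counted, but they are given no p-value and the counts support nothing.

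RNA from 8 samples, 4 per group, was hybridised to Agilent mouse arrays in a single colour. Both groups were male VV3 ESCs, a mouse embryonic stem cell line that carries a *Vasa*::Venus transgene, a fluorescent reporter of the germ cell gene *Vasa* (*Ddx4*). *L3mbtl2*-KD ESCs received the siRNA Mm_L3mbtl2_4, and control ESCs received the AllStars negative control siRNA. The cells were grown in serum and LIF on STO fibroblast feeder cells inactivated with mitomycin C. The methods set Vasa-positive cells, sorted by their fluorescence after the *L3mbtl2* siRNA, against control ESCs for which they name no sort. The siRNA and the sort cannot be told apart. The number of arrays limits the precision.

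XLR proteins are nuclear proteins related to the synaptonemal complex protein SYCP3 and share with it a COR1 region. *Xlr* was first found in lymphocytes, and relatives of the family are expressed in male germ cells. *Xlr3b* and *Xlr4b* are known as imprinted genes in the brain. L3MBTL2, the target of the siRNA, is part of a Polycomb repressive complex (PCGF6-PRC1) with MAX, MGA and E2F6, which keeps germ cell-related genes low in ESCs.

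*Xlr* lies apart from the others, at chrX:53777118-53797716 (GRCm38.p6). The *Xlr3*, *Xlr4* and *Xlr5* copies form a cluster that runs from *Xlr4a*, which starts at 73074343, to *Xlr5c*, which ends at 73293863. All 10 genes had a promoter window in RefSeq, from 250 bases before to 50 bases after the start. One window from each subfamily is printed here, 5′ to 3′ on the strand of the gene, because the *Xlr3* windows were similar to each other, as were the *Xlr4* windows, and the subfamilies were not; the *Xlr5b* window does not stand for *Xlr5c*. The windows are chrX:53797657-53797956 for *Xlr* (minus strand), chrX:73191929-73192228 for *Xlr3b* (plus), chrX:73214083-73214382 for *Xlr4b* (plus) and chrX:73148591-73148890 for *Xlr5b* (plus). Capitals mark CCAATCAG and the E2F-like letters GCGGGAA, on either strand.
Xlr: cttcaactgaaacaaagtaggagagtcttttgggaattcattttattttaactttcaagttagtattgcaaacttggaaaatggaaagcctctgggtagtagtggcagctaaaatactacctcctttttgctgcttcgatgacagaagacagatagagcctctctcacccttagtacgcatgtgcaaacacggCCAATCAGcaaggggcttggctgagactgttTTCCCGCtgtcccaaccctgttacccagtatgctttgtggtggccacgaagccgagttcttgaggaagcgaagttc
Xlr3b: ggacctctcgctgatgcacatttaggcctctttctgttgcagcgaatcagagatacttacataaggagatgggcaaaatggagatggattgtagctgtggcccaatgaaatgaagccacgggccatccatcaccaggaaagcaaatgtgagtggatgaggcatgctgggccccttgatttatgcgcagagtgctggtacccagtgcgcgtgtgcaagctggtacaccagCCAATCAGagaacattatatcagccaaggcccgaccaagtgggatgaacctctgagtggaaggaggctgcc
Xlr4b: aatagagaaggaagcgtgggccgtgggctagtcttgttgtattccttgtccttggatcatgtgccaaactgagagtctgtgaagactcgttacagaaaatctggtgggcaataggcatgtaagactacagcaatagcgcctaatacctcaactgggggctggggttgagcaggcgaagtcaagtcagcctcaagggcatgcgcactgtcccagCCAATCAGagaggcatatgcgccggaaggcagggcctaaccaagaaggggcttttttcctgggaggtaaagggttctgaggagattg
Xlr5b: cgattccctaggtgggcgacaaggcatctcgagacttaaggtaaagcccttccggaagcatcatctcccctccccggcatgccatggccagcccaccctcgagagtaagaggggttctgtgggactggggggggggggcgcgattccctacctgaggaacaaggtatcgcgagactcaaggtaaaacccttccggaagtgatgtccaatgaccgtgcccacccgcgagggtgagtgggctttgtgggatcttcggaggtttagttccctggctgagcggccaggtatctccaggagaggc

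The *Xlr4a* and *Xlr4b* windows were identical in 288 of 293 aligned positions (98.3%). *Xlr3b* and *Xlr3c* matched in 264 of 280 positions (94.3%), and *Xlr3a* and *Xlr3b* in 223 of 254 (87.8%). The *Xlr5a* and *Xlr5b* windows overlapped with a shift and were identical over 255 positions. Both lay inside the listed span of their gene, *Xlr5b* starting 807 bases past its edge, and so did the window of *Xlr5c*, which began 3098 bases inside. The *Xlr5c* window aligned to that of *Xlr5a* or *Xlr5b* over 21 positions only, of which 18 were identical. *Xlr* aligned to any *Xlr3*, *Xlr4* or *Xlr5* window over 42 positions or fewer. The letters CCAATCAG, picked after the windows had been read, were in the windows of *Xlr*, of all 3 *Xlr3* and of all 3 *Xlr4* genes, but in none of *Xlr5*. They occur in 4.1% of the 32851 windows of the table. GCGGGAA was in the *Xlr* window alone and is in 4.6% of all windows. The E-box CACGTG (7.15% of all windows) and the T-box AGGTGTGA (1.28%) were in none of the 10. These matches describe the letters only.

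The siRNA target was measured first. The log2 level of *L3mbtl2* (log2 intensity minus the 75th percentile of the array, the scale of all levels here) was 0.27, -0.18, -0.21 and -0.31 in control replicates 1 to 4. In *L3mbtl2*-KD ESCs it was -1.45, -1.26, -1.58 and -1.73. It fell by 1.40 on the log2 scale (standard error 0.15, adjusted p = 0.00094 in limma), and the groups did not overlap.

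*Xlr*, the lymphocyte-regulated gene that gave the family its name, had the largest measured difference of the members. Its level was -6.32, -5.11, -7.11 and -6.38 in the control ESCs, where the probe was not well above background on any array. In *L3mbtl2*-KD ESCs it was -2.50, -2.47, -2.50 and -2.21, well above background on all 4. All 4 knockdown samples lay far above every control, replicate 4 somewhat above the other 3. Since the controls were at background, only a bound can be given. On these intensities *Xlr* was at least 8.64-fold higher in *L3mbtl2*-KD ESCs. The bound depends on how background is handled and does not hold for the normexp value below. For this bound the knockdown mean was set against a floor, which on each control array was the dimmest signal that still counted as well above background, or the *Xlr* signal itself if higher. Such a floor is not the detection limit of this probe. Control replicate 2, at -5.11, was above the floor of its array, -5.51, yet not well above background. The measured means differed by 3.81 (standard error 0.36). Under normexp, a background correction used here with an offset of 50, the difference was 1.57 and no longer the largest, as *Xlr5b* gave 1.72 and the brighter *Xlr5c* probe 1.78.

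**Figure D1:**
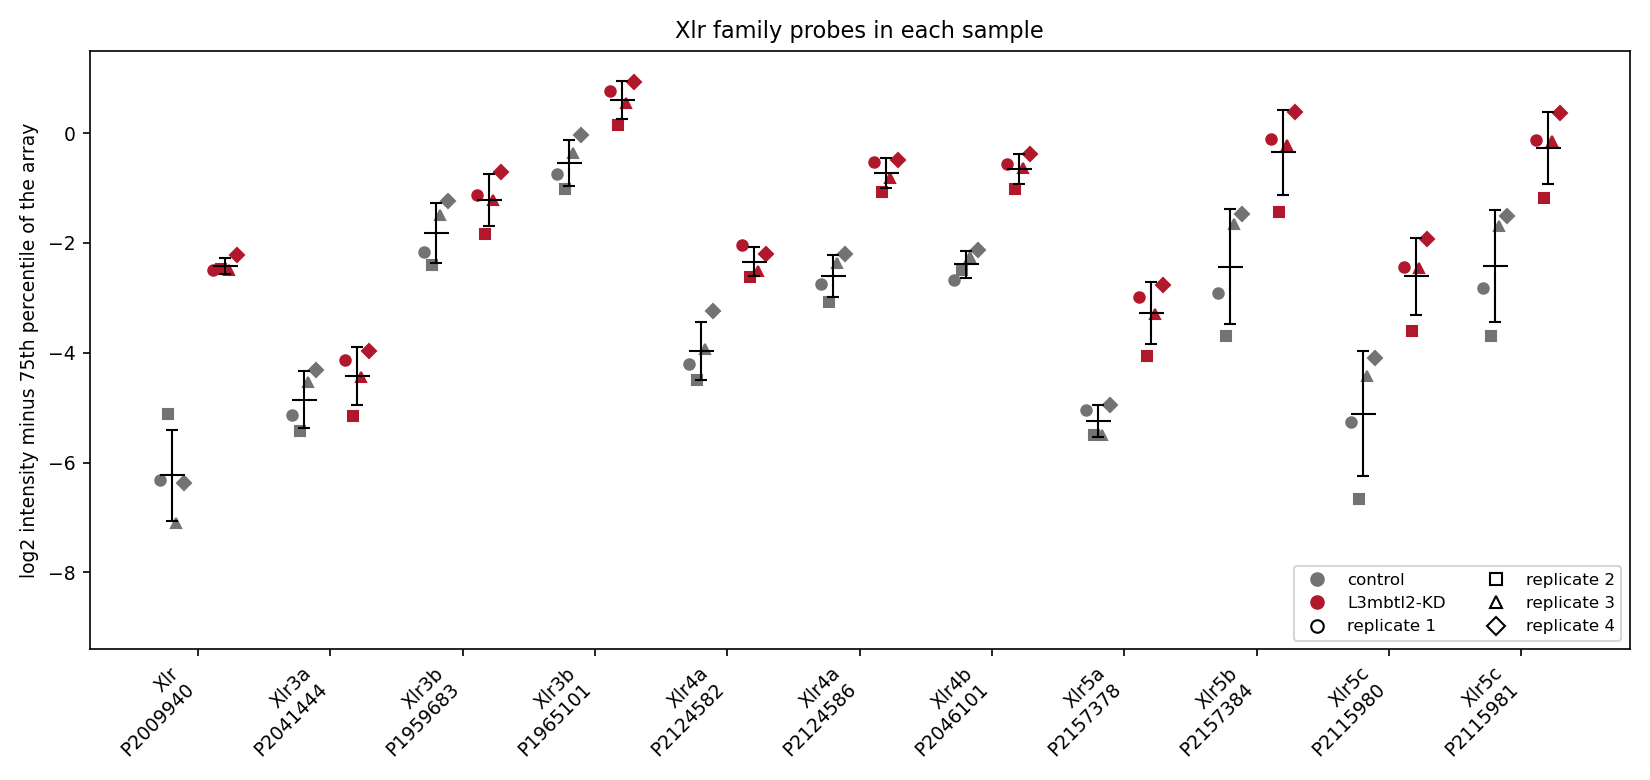
Log2 level of each of the 11 Xlr family probes in each sample (y axis, log2 intensity minus the 75th percentile of the array), in control (grey) and *L3mbtl2*-KD (red) ESCs. Marker shapes give replicate numbers, bars the mean ± SD of 4 samples, and probe names are shown without their shared first letters; the groups overlap for *Xlr3a* and for 1 of 2 *Xlr3b* probes, and levels are not comparable between probes.

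*Xlr3b*, imprinted in the brain, had 2 probes. The brighter, A_55_P1965101, gave -0.74, -1.01, -0.37 and -0.04 in control replicates 1 to 4. It gave 0.77, 0.14, 0.55 and 0.93 in *L3mbtl2*-KD ESCs, a difference of 1.14 (standard error 0.24), with the lowest knockdown sample just above the highest control. The other probe, A_55_P1959683, ranged from -2.40 to -1.23 in control and from -1.84 to -0.70 in *L3mbtl2*-KD ESCs. These groups overlapped, and the difference was 0.59 (standard error 0.31), so the probes of *Xlr3b* disagreed in size. The single probe of *Xlr3a* was well above background on 3 of 4 arrays in each group and did not enter the test. It ranged from -5.43 to -4.32 in control and from -5.15 to -3.96 in *L3mbtl2*-KD ESCs, again with overlap.

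*Xlr4b*, the copy with the smallest error, was at -2.68, -2.49, -2.25 and -2.13 in control ESCs. It was at -0.55, -1.02, -0.64 and -0.38 in *L3mbtl2*-KD ESCs. The groups were more than a log2 unit apart, with a mean difference of 1.74 (standard error 0.17). The brighter *Xlr4a* probe, A_55_P2124586, went from -2.74, -3.08, -2.37 and -2.21 to -0.53, -1.07, -0.82 and -0.48 (difference 1.88, standard error 0.21). The dimmer, A_55_P2124582, ranged from -4.49 to -3.25 in control and from -2.61 to -2.03 in *L3mbtl2*-KD ESCs (1.63, standard error 0.26). Neither *Xlr4a* probe overlapped between the groups.

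Over all arrays the *Xlr5* copies had larger differences than the *Xlr4* copies, with larger errors. The standard errors of the members come from a fit without the replicate number. They include variation that samples of the same number share, described below. *Xlr5b* was at -2.91, -3.69, -1.65 and -1.48 in control ESCs. It was at -0.11, -1.44, -0.21 and 0.38 in *L3mbtl2*-KD ESCs, a difference of 2.09 (standard error 0.55). Between samples of the same replicate number, 1 to 4, the *Xlr5b* differences were 2.80, 2.25, 1.44 and 1.86. Knockdown replicate 2 lay barely above control replicate 4. The brighter *Xlr5c* probe, A_55_P2115981, followed it closely, with -2.82, -3.69, -1.69 and -1.51 in control and -0.13, -1.18, -0.14 and 0.37 in *L3mbtl2*-KD ESCs (difference 2.16, standard error 0.51). After each probe was centred on its own mean, the profiles of these *Xlr5b* and *Xlr5c* probes were never more than 0.22 apart on an array. Whether they measure separate transcripts was not tested, as probe sequences were not used here. The dimmer *Xlr5c* probe, A_55_P2115980, was well above background on 3 of 4 control arrays and differed by 2.50 (standard error 0.57). The *Xlr5a* probe, well above background on 2 of 4 control arrays, ranged from -5.50 to -4.96 in control and from -4.05 to -2.76 in *L3mbtl2*-KD ESCs (1.97, standard error 0.27).

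Within the family, 10 of 11 probes entered the test, which took the 23524 probes that were well above background throughout the 4 arrays of either group. A probe was called with a change of over 2-fold at an adjusted p under 0.05. By this rule 9 of 10 were called higher, and none lower, in *L3mbtl2*-KD ESCs. Over all probes tested, 2.49% were called higher and 2.66% lower. Every *L3mbtl2*-KD array was above every control array for 9 of 10 tested members, and for 11.3% of all probes tested. Nothing is read from these counts, since the members were selected on this comparison, and *Xlr*, *Xlr5a* and the dimmer *Xlr5c* probe entered the test through the *L3mbtl2*-KD arrays alone. *Xlr5b* was not called without *L3mbtl2*-KD replicate 1, 3 or 4 or without control replicate 1 or 2, nor was the brighter *Xlr5c* probe without *L3mbtl2*-KD replicate 1, 3 or 4. The dimmer *Xlr5c* probe was not called without *L3mbtl2*-KD replicate 4, nor was the brighter *Xlr3b* probe without control replicate 2. The replicate number was not a term in these fits. The median difference was 1.92 over the tested members and -0.03 over all probes tested. Each knockdown sample was above the control sample of the same replicate number in 44 of 44 pairs of values, a direction that the choice of members favours. The *Xlr5* differences (1.97 to 2.50) lay above the *Xlr4* differences (1.63 to 1.88), which lay above those of *Xlr3b*. This order did not hold with normexp, where the dimmer *Xlr5c* probe gave 1.25, *Xlr5a* 0.89 and the dimmer *Xlr4a* probe 0.98, the last 2 no longer called, against 1.04 for the brighter *Xlr3b* probe. The order also did not hold without control replicate 2, where *Xlr5b* (1.67) was below *Xlr4b* (1.70). Without control replicate 3, *Xlr5a* (1.88) was below the brighter *Xlr4a* probe (1.95). Differences between members were not tested.

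**Figure D2:**
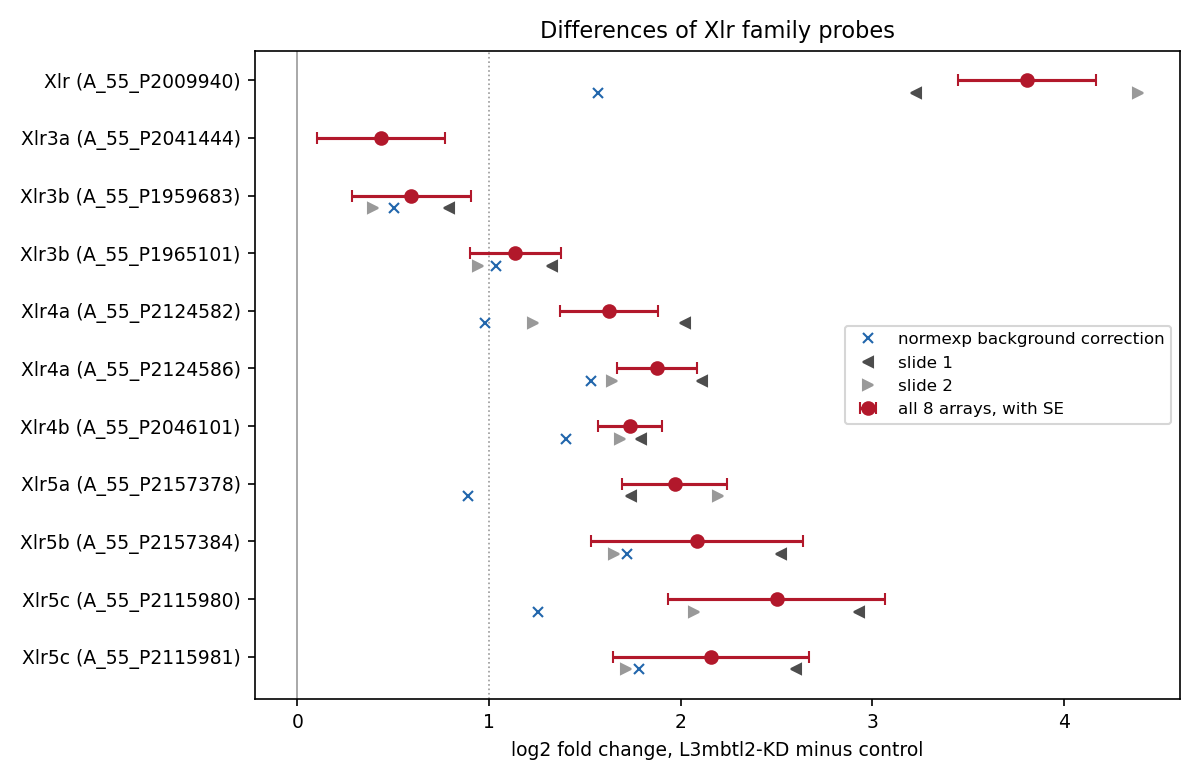
Difference in log2 level between *L3mbtl2*-KD and control ESCs for each Xlr family probe (x axis), over all 8 arrays with its standard error (red), with normexp background correction (crosses), and on each slide alone (triangles; *Xlr3a*, not tested, over all arrays only). All values lie above 0, and the *Xlr* difference of 3.81 became 1.57 with normexp.

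The arrays lay on 2 slides, replicates 1 and 2 on the first and replicates 3 and 4 on the second, each slide scanned on a day of its own. On the first slide alone the difference was 3.23 for *Xlr*, 2.52 for *Xlr5b*, 1.79 for *Xlr4b* and 1.33 for the brighter *Xlr3b* probe. On the second slide these were 4.38, 1.65, 1.68 and 0.94. The order of the *Xlr5* and *Xlr4* differences did not hold on either slide. *Xlr5a* (1.74) was below *Xlr4b* on the first, and *Xlr5b* was below *Xlr4b* on the second. The sign was the same on both slides for every member probe, which the choice of members favours. With slide as a block 9 of 10 were called, beside 597 higher and 650 lower of all probes tested, and nothing is read from this.

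Samples with the same replicate number deviated alike in the *Xlr3*, *Xlr4* and *Xlr5* copies. Replicate 2 was the lowest *L3mbtl2*-KD sample for 10 of 10 probes of the cluster and the lowest control sample for 8 of 10. Replicate 4 was the highest *L3mbtl2*-KD sample for 9 of 10 and the highest control sample for 10 of 10. Over all probes tested, replicate 2 was the lowest knockdown sample for 26.6% and the lowest control for 25.6%, and replicate 4 the highest knockdown sample for 30.2% and the highest control for 27.8%. Replicates 2 and 4 were also the lowest and highest of both groups for *Ct55*, a gene near *Xlr*, and for 1 of 2 tested probes of *DXBay18*, a gene within the cluster, both picked out after their values had been seen. Deviations from the group means correlated between cluster probes with a median Pearson r of 0.92 (45 pairs, 0.573 to 0.996, over the same 8 arrays). Some pairs are probes of the same gene or of similar copies. Whether the cluster probes measure separate transcripts was not tested, so they do not count as independent. *Xlr* did not share this pattern, with r from -0.68 to 0.01 against the 10 cluster probes. Its control levels were at background, where order carries little.

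**Figure D3:**
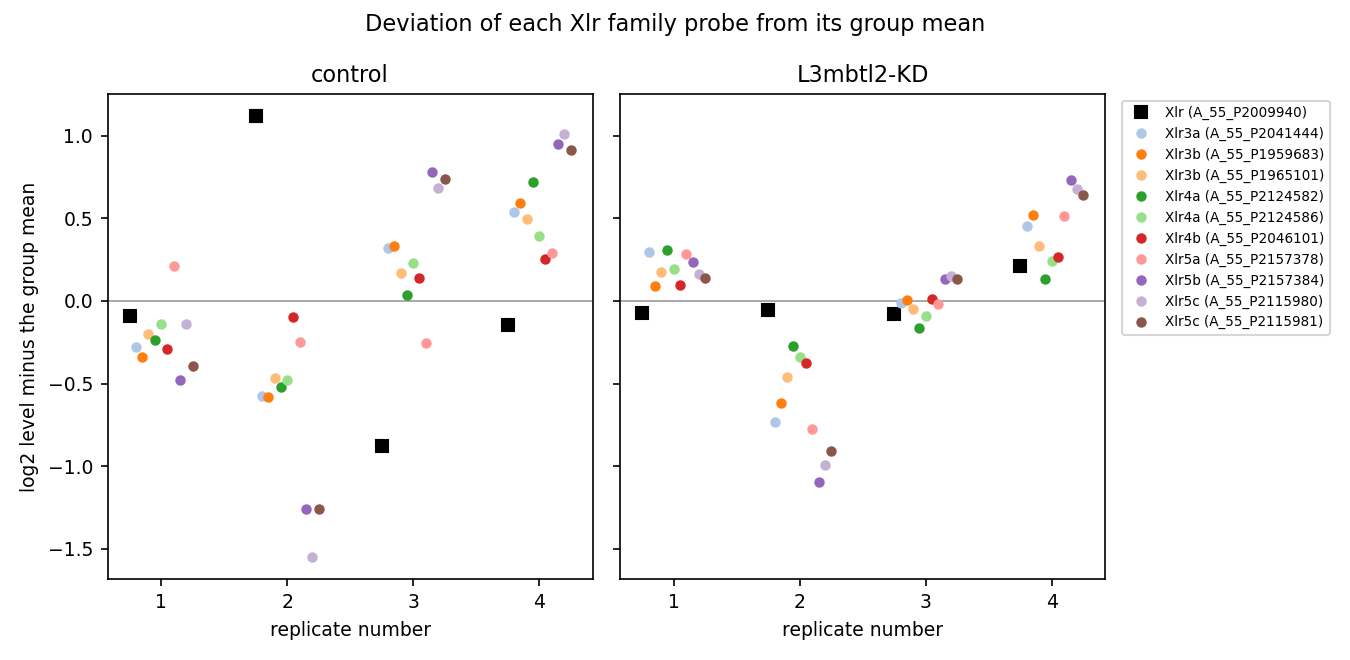
Log2 level of each Xlr family probe minus its group mean (y axis), by replicate number (x axis), in control (left) and *L3mbtl2*-KD (right) ESCs. The cluster probes (circles) are mostly lowest in replicate 2 and highest in replicate 4 of both groups, while *Xlr* (squares) is not.

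The slides were compared with each other, with the siRNA as a term, after these deviations had been seen. The second slide was higher by 1.30 (standard error 0.35) for *Xlr5b*, by 1.21 (0.32) and 1.26 (0.39) for *Xlr5c*, and by 0.72 (0.20) and 0.47 (0.18) for *Xlr3b*. It was higher by 0.36 (0.24) and 0.39 (0.17) for *Xlr4a*, by 0.33 (0.12) for *Xlr4b* and by 0.26 (0.28) for *Xlr5a*, and for *Xlr* the difference was -0.45 (standard error 0.35). None of the 10 tested members passed the call rule in limma (0 of 10), against 0.565% of all probes tested, and 6 of 10 were at an unadjusted p under 0.05, against 25.6% of all. Without *L3mbtl2*-KD replicate 1, 2 members passed. This fit takes the 4 arrays of a slide as independent although samples of the same replicate number deviated together, so its standard errors and p-values are too small, and its values are a description. Slide and scan day cannot be told apart.

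Among the relatives with a COR1 region, *Slx*, an X-linked gene of spermatids, was higher in *L3mbtl2*-KD ESCs. Its level was -4.49, -4.87, -4.62 and -4.87 in control and -2.06, -1.89, -1.97 and -1.83 in *L3mbtl2*-KD ESCs, well above background throughout. The difference was 2.78 (standard error 0.11, adjusted p = 7.4e-06 in limma), and 1.67 with normexp. The relatives were listed with earlier results of these data known, so these p-values are a description. *Sly*, the Y-linked counterpart of *Slx*, had 1 tested probe, with a difference of 0.76 (standard error 0.36, adjusted p = 0.17 in limma) that did not pass. *Slxl1* was not well above background on any array, and *Sycp3* differed by -0.11 (standard error 0.13). Of 10 relatives listed, 4 had a probe, 3 were tested and 1 was called. Among all probes tested 2.49% were called higher and 2.66% lower, and nothing is read from the count. The list held *Slx*, *Slxl1*, *Sly*, *Sycp3* and other symbols that start with Xlr, so relatives under other names were not counted. *3830403N18Rik*, which has the synonym Xlrl, was looked at after its values had been seen: it was well above background on 1 of 4 control and 4 of 4 knockdown arrays, with a difference of 2.35 (standard error 0.39), which was 0.92 and not called with normexp.

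Of the genes beside the cluster none was called, where 2.49% of all probes tested were called higher and 2.66% lower. The count is near these shares, and nothing is read from it. Of the 20 nearest genes, 10 on each side, 10 had a probe and 8 were tested, and none of their 11 tested probes was called by limma (0 of 11) or by one-way ANOVA, with 2 at an unadjusted p under 0.05. Their median difference was 0.04, and the largest in size, -0.48 for *Zfp185* (adjusted p = 0.0067 in limma), was under 2-fold. *DXBay18*, which lies between *Xlr5a* and *Xlr5b* and was picked out after its values had been seen, differed by 1.23 (standard error 0.39) and 1.67 (0.51) in its 2 tested probes, with overlap between the groups and adjusted p of 0.061 and 0.053 in limma. With the replicate number as a block, chosen for it after seeing the data, both probes were called (adjusted p = 0.0091 and 0.0013 in limma), as they were with slide as a block (0.0079 and 0.0060), each knockdown sample being above the control sample of its number. The third *DXBay18* probe was not tested, as it was well above background on 2 of 4 knockdown arrays and no control array. Around *Xlr*, 4 of the 20 nearest genes were tested and 1 was called, the cancer/testis gene *Ct55*. It ranged from -4.22 to -2.85 in control and from -2.64 to -1.29 in *L3mbtl2*-KD ESCs (1.54, standard error 0.34, adjusted p = 0.017 in limma). *Ct55* was not called with normexp (0.95), by one-way ANOVA after Benjamini-Hochberg adjustment, within either slide or without control replicate 3.

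**Figure D4:**
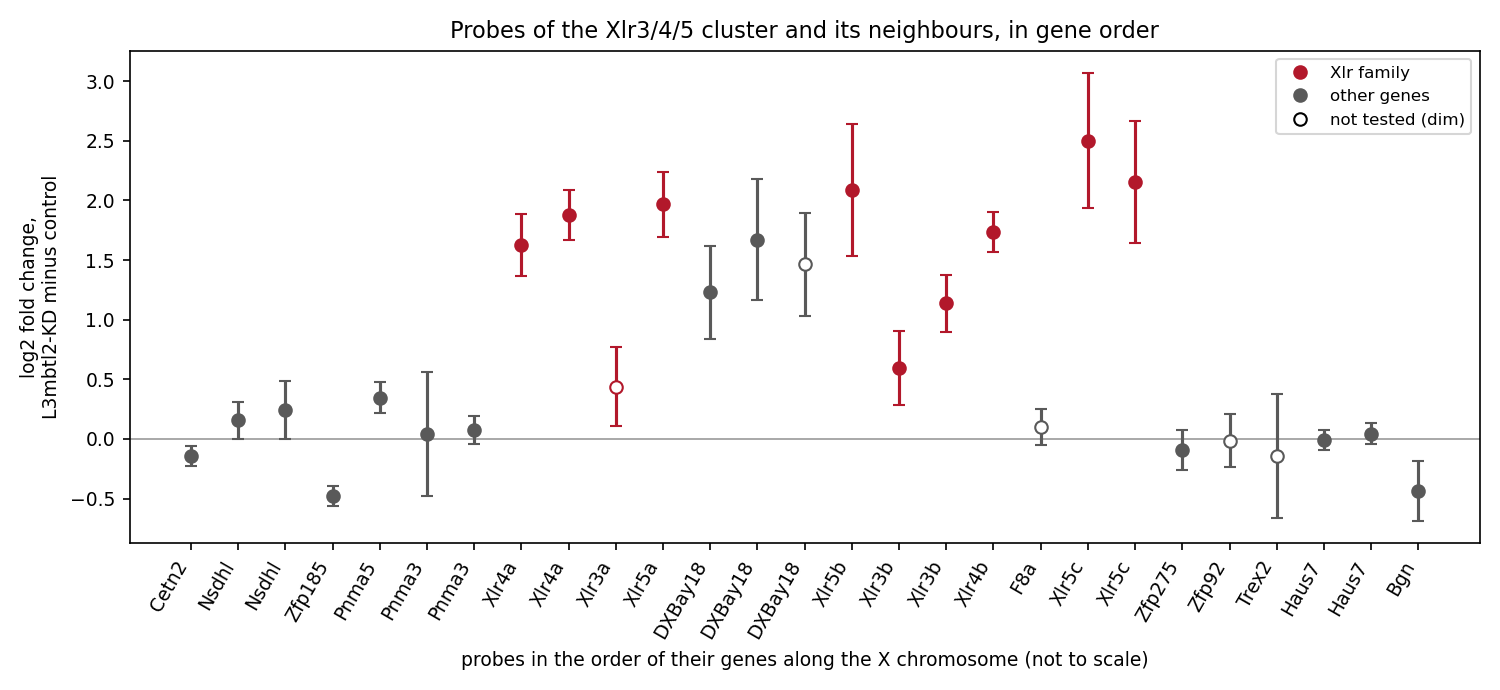
Difference in log2 level between *L3mbtl2*-KD and control ESCs (y axis, bars are standard errors) for probes of the *Xlr3*, *Xlr4* and *Xlr5* cluster (red) and of the genes within and beside it (grey), in gene order along the X chromosome and not to scale. Open circles are probes too dim to be tested; the genes outside the cluster lie between -0.48 and 0.35.

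On the X chromosome as a whole, 64 of 637 tested probes were called higher and 17 lower. Without the family it was 55 and 17 of 627 (8.77% and 2.71%), against 1.91% and 2.80% of the 17102 tested probes of named genes elsewhere. The median X-linked difference was -0.02. Of 25 X-linked germ-line genes listed for comparison, 21 had a probe, 13 were tested and 10 were called higher, with none lower. They were *Tktl1* (2.30), *Mageb4* (1.87), *Tex13b* (1.81), *Taf7l* (1.75), *Fthl17e* (1.58), *Usp26* (1.45), *Tex11* (1.41 and 1.36), *Cypt3* (1.25), *Nxf3* (1.19) and *Nxf2* (1.11). *Usp26* was well above background on 2 of 4 control arrays, *Tktl1* on 2 of the 3 with a value, and *Nxf3* on 3 of 4. *Tktl1* and the *Tex11* probe at 1.36 each had no value in 1 control sample. In the deposited log2 table, where those spots have values, neither was called. With normexp, *Cypt3*, *Nxf2*, *Nxf3*, *Usp26* and that *Tex11* probe were not called. Without *L3mbtl2*-KD replicate 4 *Nxf2* was not called, nor was that *Tex11* probe without control replicate 3. By one-way ANOVA after Benjamini-Hochberg adjustment, 9 of the 14 tested probes were called, beside 11 by limma. Their median difference was 1.43.

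Marker genes were read beside the family, where 2.49% of all probes tested were called higher and 2.66% lower. Markers of late germ cells were called higher in 5 of 6 genes, and their summed level, relative to the 75th percentile, was 29.1 to 51.0 in control and 93.5 to 125 in *L3mbtl2*-KD ESCs. The brightest probe, which measures signal and not abundance between genes, was that of *Stra8*. *Sycp3* was the gene not called, and *Ddx4* is the gene of the reporter used for the sort. Two-cell-like markers were called higher in 6 of 7 genes (8 of 10 probes, 5 by one-way ANOVA after Benjamini-Hochberg adjustment), with a sum of 10.4 to 15.0 in control and 21.1 to 40.4 in *L3mbtl2*-KD ESCs. *Tdpoz4* was well above background on 1 of 4 control arrays, and its groups overlapped. The brightest probe was that of *Zfp352* in control and a *Zscan4c* probe in *L3mbtl2*-KD ESCs. Feeder fibroblast markers went the other way. Of 8 genes tested, 5 fell (*Acta2*, *Col1a1*, *Col1a2*, *Col3a1* and *Dcn*) and *Loxl1* rose in 1 of 2 probes. The brightest probe was that of *Col1a2* in control and of *Loxl1* in *L3mbtl2*-KD ESCs, and *Col3a1* and *Dcn* were not well above background on any *L3mbtl2*-KD array. The summed level of the feeder markers was 2.48, 5.23, 4.37 and 6.27 in control replicates 1 to 4 and 1.46 to 1.68 in *L3mbtl2*-KD ESCs, and *Lum* and *Postn* were not well above background on any array. The part of these cells in the Xlr differences was not tested, and fewer cells of a type and less RNA per cell cannot be told apart. Of 8 embryonic stem cell markers none was called by limma or one-way ANOVA (0 of 10 probes, 4 at an unadjusted p under 0.05), with a median difference of -0.24. *Klf4* differed by -0.70 (adjusted p = 0.027 in limma), under 2-fold but without overlap, and *Nanog* by -1.32 (adjusted p = 0.096 in limma). The sums, mostly of the bright *Dppa5a* probe, were 250 to 279 in control and 241 to 287 in *L3mbtl2*-KD ESCs. Of the lymphocyte markers, *Ptprc* and *Rag1* were not well above background on any array. The 2 tested were *Cd3e* and *Cd2*, and neither was called by limma or one-way ANOVA or was at an unadjusted p under 0.05 (0 of 2).

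The genes with levels most like the *Xlr* probe over the 8 arrays were *Arel1* (Pearson r = 0.993), *Tuba3a* (0.993), *Ube2j2* (0.992), *Creld2* (0.991) and *Tuba3b* (0.990), of which the alpha-tubulins *Tuba3a* and *Tuba3b* differed by 1.16 and 1.11 between groups. For the brighter *Xlr3b* probe they were *Ctu2* (0.986), *Bop1* (0.985), *Dpm2* (0.983), *3110070M22Rik* (0.979) and *Zgpat* (0.978). Such values follow the 2 groups. In deviations from the group means, the genes most like *Xlr* were *Mrps9* (0.989), *Vstm2l* (0.972), *Sult2b1* (0.970), *Golph3* (0.970) and *P3h1* (0.969). The *Xlr* deviations came mostly from its control samples (SD 0.83, against 0.14 in *L3mbtl2*-KD ESCs), which were at background, so this order carries little. Those most like *Xlr3b* were *Asic1* (0.977), *Lpar4* (0.974), *Abcc5* (0.973), *Prpmp5* (0.969) and *Prtg* (0.967). These are the highest of many values over 8 arrays and are given as a description.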

How the data were processed

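For each array the authors deposited the background-subtracted intensity of every spot from Feature Extraction 10.7.3.1, with flags, not normalized between arrays. A table of log2 expression, also deposited, followed the shifted and centred spot intensities here (lowest correlation of an array 0.999). Labelling started from 100 ng of RNA. Intensities were put on a log2 scale and the 75th percentile of the array was subtracted, leaving out control spots and outlier flags. From 59.5 to 66.6% of spots were well above background per array, and none was saturated. RefSeq accessions named 26055 of 39429 probes (19751 genes, GRCm38.p6).

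The comparison used limma 3.58.1 under R 4.3.3 (lmFit, then eBayes), p-values were adjusted by Benjamini-Hochberg across the 23524 tested probes, and the code was tested on simulated data. Replicates are given as biological, with no word on separate cultures; p-values measure the spread between these samples. Deviations from the group means correlated at 0.377 to 0.582 between samples of the same replicate number and at -0.437 to 0.247 otherwise, so the numbers pair the samples, as inferred from the values. The main fit did not use this pairing, so its standard errors include variation shared within a number. The named genes are every member probe, the listed genes past the call rule, *L3mbtl2*, and the 5 genes most like *Xlr* and *Xlr3b*. Members and lists were chosen with earlier results of these data known, and a listed marker is not reported here. Alternatives were normexp (offset 50, on median spot intensities), quantile normalization, the deposited log2 table, other filters, slide and replicate blocks, one-way ANOVA, a 1.5-fold threshold and leaving out each sample.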

Additional observations from a re-analysis of the deposited data

Results flagged for a closer look

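In *L3mbtl2*-KD ESCs, the *Xlr* level of replicate 4, -2.21, lay apart from the other 3 knockdown samples, which were lower and close together. Its gap to the nearest sample was 0.905 of the range of the group, which is past the limit of Dixon's ratio for 4 samples. Chance gives about 1 such group in 20, and this was 1 of 26 groups looked at.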

How the results depend on the processing

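The differences of the 10 tested Xlr family probes were above 0 with normexp, quantile normalization and the deposited log2 table, and 6 moved by over 1 SD, all with normexp. Blocks leave these differences as they are in this balanced design, and their signs within slides or with a sample left out are favoured by the choice of members. The count of members called, 9, was 7 with normexp (without *Xlr5a* and the dimmer *Xlr4a* probe), 7 of 11 with no filter on dim probes (without *Xlr5b* and the brighter *Xlr5c* probe), 6 of 7 over probes above background on all arrays, 9 with the replicate block and, with one-way ANOVA, 9 at an unadjusted p under 0.05 and 6 after Benjamini-Hochberg (without *Xlr5b* and both *Xlr5c* probes). It ranged from 6 to 9 with a sample left out, lowest without *L3mbtl2*-KD replicate 4. Within slide 1 it was 0 in limma (10 at an unadjusted p under 0.05), as were the counts of all probes higher, 0, and lower, 0 (3452 at an unadjusted p under 0.05). Within slide 2, also with 2 arrays per group, it was 7, and 596 of all probes were higher and 574 lower. Of all probes, 586 were called higher and 625 lower; with normexp 348 and 190, with quantile normalization 668 and 492, and at 1.5-fold 1094 and 1475. Over probes above background on all arrays 391 were lower. Leaving out a sample gave 523 to 639 higher and 489 to 699 lower, and the replicate block 616 and 679; the replicate block changed no call of a member or of a listed or neighbouring probe but *DXBay18*. X-linked probes called higher were 38 with normexp and 41 over probes above background on all arrays, and those lower 7 with normexp and 49 at 1.5-fold. The X-linked germ-line probes called, 11, were 6 with normexp and 7 over probes above background on all arrays. In the comparison of slides, chosen after seeing the data, 0 to 2 members passed with a sample left out, 2 without *L3mbtl2*-KD replicate 1. The cause of these changes was not tested. Naming probes by gene name was not run, as that column was not used here. Signal near background limits *Xlr*, *Xlr3a*, *Xlr5a* and the dimmer *Xlr5c* probe.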
